A study of Mus musculus with 28 samples.

Results

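The comparison set unstimulated CD4+ T cells polarized to Th17 against those polarized to Th1, both recovered from mice 15 days after transfer. Its members were chosen by title alone: 4 arrays of Th17 cells taken ex vivo at day 15 and 2 arrays of Th1 cells taken ex vivo at day 15, both without restimulation, or 6 of the 28 arrays in the series. All cells carried the TRP1 T cell receptor on the BwTRP1 Rag1-/- background, bore Thy1.2 and recognized a peptide of tyrosinase-related protein 1, a melanocyte antigen. They were stimulated in culture for 7 days with irradiated C57/B6 splenocytes loaded with the TRP1 peptide. Th17 cells received IL-1, IL-6, IL-21 and TGFβ2 with antibodies to IL-2, IL-4 and IFN-γ, and later IL-2 and IL-23. Th1 cells received IL-12 with an antibody to IL-4. Both kinds of cell were transferred into B6.PL hosts, which bear Thy1.1 and had received 5 Gy of sublethal irradiation. At day 15 spleens and inguinal lymph nodes were pooled, CD4+ cells were enriched and the Thy1.2+ cells were sorted. Each sorted sample was divided, and the parts compared here were the unstimulated ones. The labels do not say that the replicates came from separate mice or cultures, so the p-values measure a spread between samples that may be technical. That spread was pooled over all 24 ex vivo arrays, which include day 5 arrays and restimulated parts of the same sorted samples.

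Th1 cells are helper T cells that make IFN-γ under the transcription factor T-bet, whereas Th17 cells make IL-17 and depend on IL-23 for their upkeep. Effector T cells that have divided many times commonly carry granzymes, killer lectin-like receptors and receptors for inflamed tissue. Memory T cells of lymphoid organs keep CCR7, the IL-7 receptor and the capacity to divide again.

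Values are log2 units of RMA, a method that corrects, normalizes and summarizes the probes of an Affymetrix array. For each of 19938 genes with a probe set of 1 symbol, the probe set of highest mean was used. Array medians, taken over all deposited probe sets and not only those kept, ran between 6.77 and 7.09 in the whole series. No detection calls were used, so a level near or below those medians is not shown to be above background. A difference is Th17 minus Th1 on the log2 scale, and a gene is called where its adjusted p in limma, over all genes, is under 0.05. Values of Th17 arrays are given in the order of replicates 1 to 4, and values of Th1 arrays in the order of replicates 1 and 2.

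The Th1 group has 2 arrays only, and 1 Th17 array stood apart. Th17 replicate 3 differed from the other Th17 arrays by 0.213 to 0.282 on average per gene, whereas those others differed from one another by 0.128 to 0.133. The Th1 arrays differed from each other by 0.153. Between Th17 and Th1 arrays the mean difference per gene ran from 0.176 to 0.297, and replicate 3 lay 0.297 and 0.293 from the Th1 arrays. Without it, 821 genes were called, and 695 of the 827 genes called with it were called again in the same direction. Both Xist, made from the inactive X chromosome of female cells, and Y-linked transcripts were present on all 6 arrays: Xist lay between 8.69 and 9.18 on Th17 arrays and at 9.35 and 9.25 on Th1 arrays, and Eif2s3y, a Y-linked translation factor gene, lay between 9.12 and 9.71 on Th17 arrays and at 9.69 and 9.86 on Th1 arrays. Of 4 sex-linked genes measured, only Uty, also Y-linked, was called. Uty lay at 8.72, 8.73, 8.67 and 8.93 on Th17 arrays, against 9.31 and 9.26 on Th1 arrays. Its difference was -0.52 (adjusted p = 0.00638 in limma), a call lost without either Th1 array.

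The arrays carried the transcripts of CD4+ T cells at like levels. Cd4 lay at 13.10, 13.01, 12.91 and 13.12 on Th17 arrays, against 13.03 and 13.17 on Th1 arrays. Thy1, the gene of the sorting marker, lay at 13.18, 13.11, 13.02 and 13.10 on Th17 arrays, against 13.07 and 13.10 on Th1 arrays. Groups overlapped for both, and none of the 12 T cell identity genes measured was called in either direction (1 was called higher without Th17 replicate 3; median difference -0.05; over all genes 0.02). As these are bulk samples, fewer cells that make a transcript and less of it in each cell cannot be told apart, here and in all results that follow.

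Erythroid transcripts, which CD4+ T cells are not known to make in quantity and which were taken as the host's, are set apart from the results. The mean of 23 erythroid markers was 9.09, 8.78, 8.38 and 8.89 on Th17 arrays, against 9.22 and 8.88 on Th1 arrays. At day 5 the same mean lay between 6.93 and 7.08 on Th17 arrays and between 6.87 and 6.93 on Th1 arrays, so that all day 15 arrays were above all day 5 arrays. Th17 replicate 3 was the lowest of the 6 arrays for 21 of the 23 markers, and Th1 replicate 1 the highest for 17. Among the 23, 2 were called, both lower in Th17: Alas2, the first enzyme of haem synthesis in red cells, with a difference of -0.60, and Slc25a37, the mitochondrial iron importer mitoferrin, with -0.46. Neither was called when either Th1 array was left out. Car1, the carbonic anhydrase of red cells, lay at 12.38, 12.09, 11.66 and 12.19 on Th17 arrays, against a mean of 12.06 ± 0.09 on Th1 arrays (SD, n = 2), and the groups overlapped. No erythroid marker is named among the results below, and 825 genes were called with all 23 removed.

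**Figure D1:**
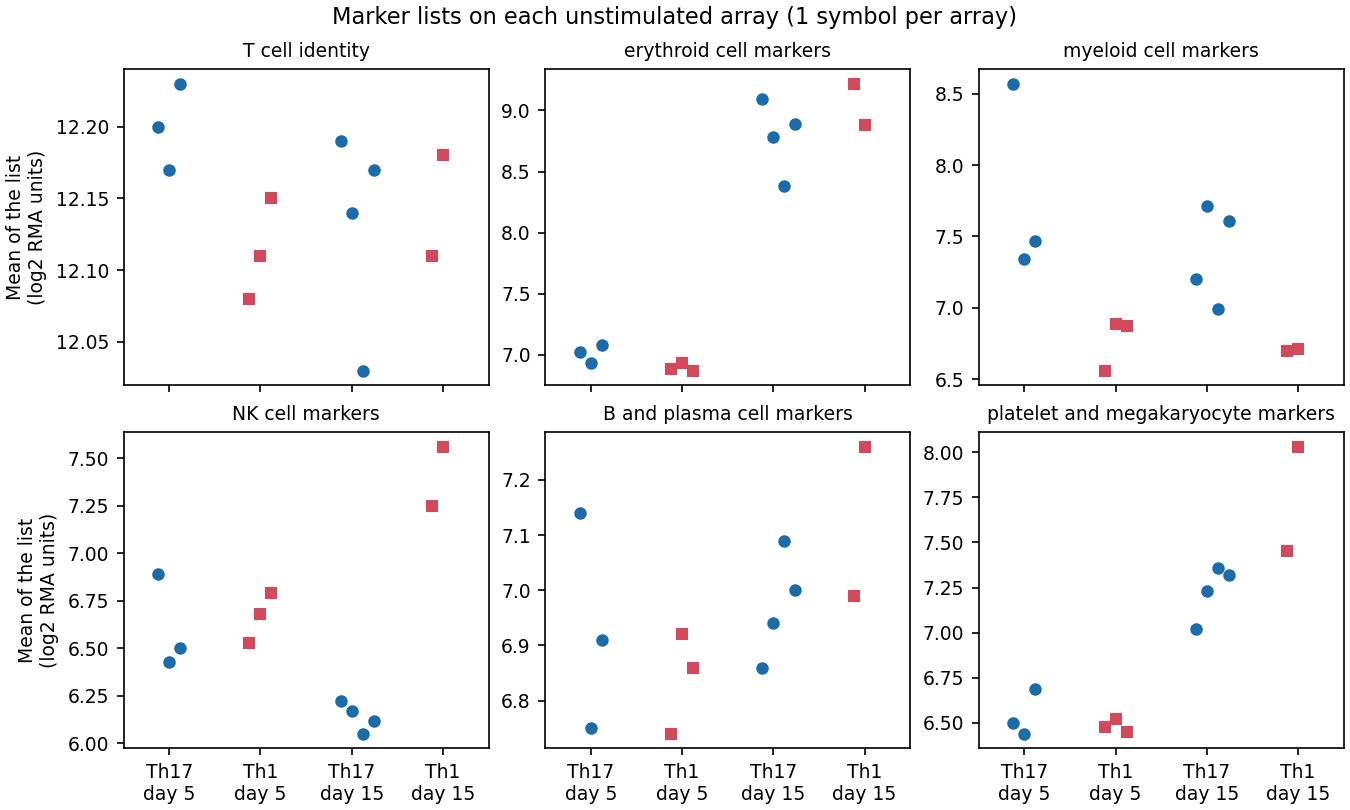
Mean level (log2 RMA units, own scale in each panel) of 6 marker lists on each unstimulated array, with 1 symbol per array, Th17 as circles and Th1 as squares, day 5 before day 15. T cell identity genes stay within 12.03 to 12.23, erythroid markers lie at 8.38 or higher at day 15 and at 7.08 or lower at day 5, and NK cell markers lie at 6.05 to 6.22 on Th17 arrays and at 7.25 and 7.56 on Th1 arrays at day 15.

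At day 15, 827 of 19938 genes were called, or 4.15%. Of these, 374 genes (1.88%) were higher in Th17 and 453 (2.27%) were lower. At least 2-fold differences were called for 165 genes (0.828%), 75 higher (0.376%) and 90 lower (0.451%). The 4 Th17 arrays and the 2 Th1 arrays did not overlap for 823 of the 827 genes called. Over all genes, the 4 Th17 arrays lay above both Th1 arrays for 11.6% of genes and below both for 12.2%. The number called fell to 421 without Th1 replicate 1 and to 283 without Th1 replicate 2. A core of 199 genes, 105 higher and 94 lower, was called whichever of the 6 arrays was left out. The 20 leading genes each way were taken among called genes without overlap, leaving out clone names and erythroid genes. Their lack of overlap was thus fixed by the choice and adds nothing where it is stated below. Of these 40 genes, Itgax and Ppbp lost the call without Th1 replicate 2, and 38 were called under each alternative that tested them, though they had been chosen among called genes.

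**Figure D2:**
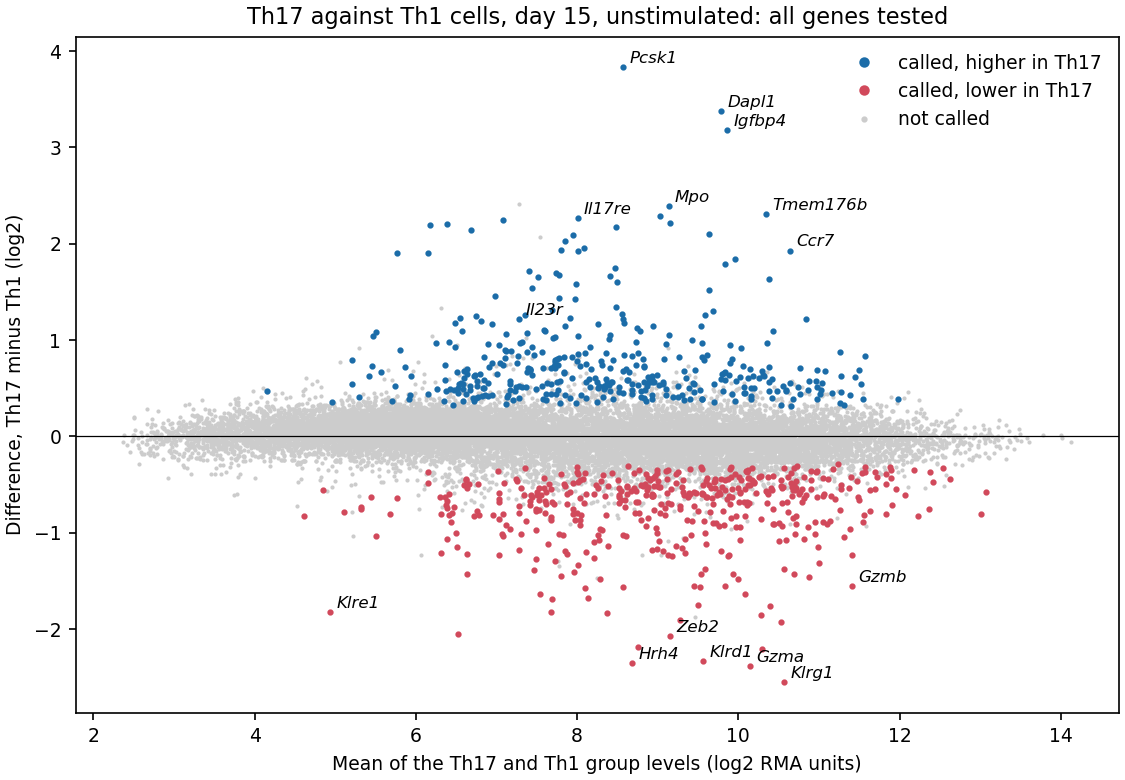
Difference of each of 19938 genes (Th17 minus Th1, log2, vertical axis) against the mean of the Th17 and Th1 group levels (log2 RMA units, horizontal axis), with called genes in colour. The 3 largest differences are those of Pcsk1 at 3.83, Dapl1 at 3.38 and Igfbp4 at 3.18, and the lowest is that of Klrg1 at -2.55.

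Genes of the cytotoxic granule were lower in Th17 cells where called. Of 20 measured, 8 were called lower and none higher, with a median difference of -0.52, against 2.27% of all genes called lower. The 8 were Gzma, Gzmk, Gzmb, Fasl, Prf1, Cst7, Serpinb6b and Nkg7. Gzma, which encodes the tryptase granzyme A (probe set 10412211), lay at 9.31, 9.07, 8.64 and 8.84 on Th17 arrays, against 11.53 and 11.15 on Th1 arrays. Every Th17 array was below both Th1 arrays, and the difference was -2.38 (SE 0.18, 5.19-fold, adjusted p = 5.81e-09). Gzmk, a second tryptase of the same cluster (10412218), lay at 9.06, 8.89, 9.35 and 8.95 on Th17 arrays, against 10.46 and 10.76 on Th1 arrays (difference -1.55, SE 0.16, adjusted p = 9e-07). Gzmb, the caspase-activating granzyme B (10420308), lay at 10.75, 10.41, 10.57 and 10.80 on Th17 arrays, against 12.13 and 12.24 on Th1 arrays (difference -1.55, SE 0.20, adjusted p = 2.68e-05). All 3 granzymes were low on every Th17 array, with no overlap. Prf1, the pore-forming perforin that lets granzymes into a target cell, lay at 8.01, 7.77, 7.68 and 7.79 on Th17 arrays, against 8.82 and 9.09 on Th1 arrays (difference -1.14, SE 0.20, adjusted p = 0.00102). Nkg7, a granule membrane protein, differed by -0.58 and Cst7, the protease inhibitor cystatin F, by -1.01. Fasl, the death ligand, lay at 8.66, 8.51, 8.27 and 8.63 on Th17 arrays, against 9.66 and 9.83 on Th1 arrays, but its adjusted p of 0.0167 was lost without either Th1 array. Genes of granule release and packing that were not called included Rab27a with a difference of 0.04, Unc13d with -0.12 and Srgn, the granule proteoglycan serglycin, with -0.23. The count of 8 was 4 without Th1 replicate 2 and between 6 and 8 without any other array.

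Gzma, Gzmk and Cdc20b lie close together on chromosome 13 and form 1 of 5 runs of genes called at least 2-fold lower with gaps of at most 500000 bases (GRCm38.p6), and the span of this run holds 6 measured genes, of which these 3 were so called. Their promoters are shown because the pair fell together, as the 250 bases before the first listed RefSeq start (GRCm38.p6), 5′ to 3′ on the gene's strand. Capitals mark matches to a T-box core, GGTGTGA, and to a Tcf/Lef core, TTCAAAG, on either strand. Both genes lie on the minus strand, Gzma at chr13:113100982-113101231 and Gzmk at chr13:113180966-113181215.
Gzma: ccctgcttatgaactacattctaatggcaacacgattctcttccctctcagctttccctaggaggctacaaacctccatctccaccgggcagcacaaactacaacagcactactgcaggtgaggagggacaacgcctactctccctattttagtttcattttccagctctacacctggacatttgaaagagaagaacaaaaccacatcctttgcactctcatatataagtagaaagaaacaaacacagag
Gzmk: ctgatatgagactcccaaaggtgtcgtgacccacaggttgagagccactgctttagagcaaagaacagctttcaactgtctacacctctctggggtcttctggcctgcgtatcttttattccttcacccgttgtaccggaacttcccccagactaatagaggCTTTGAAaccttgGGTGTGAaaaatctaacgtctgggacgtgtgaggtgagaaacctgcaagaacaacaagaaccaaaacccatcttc
In the Gzmk promoter the T-box core began at base -75 and the Tcf/Lef core, on the other strand, at base -88 from the start. The T-box core was present in 3.96% of the 27025 RefSeq promoters of 300 bases (250 before and 50 after the start) and the Tcf/Lef core in 5.27%. The Gzma promoter held neither.

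Killer lectin-like and other NK receptors were mostly lower in Th17 cells. Of 19 measured, 13 were called lower and none higher (median difference -0.83). Klrg1, an inhibitory receptor for cadherins that marks effector T cells (10547590), lay at 9.52, 9.16, 9.15 and 9.34 on Th17 arrays, against 11.87 and 11.81 on Th1 arrays. The difference was the lowest of all genes called, at -2.55 (SE 0.17, 5.84-fold, adjusted p = 3.08e-09). Klrd1, the CD94 chain that pairs with NKG2 receptors (10542214), lay at 8.79, 8.38, 7.90 and 8.53 on Th17 arrays, against 10.68 and 10.78 on Th1 arrays (difference -2.33, SE 0.18, adjusted p = 5.81e-09). Klrk1, the activating receptor NKG2D (10548345), lay at 7.78, 7.70, 7.23 and 7.94 on Th17 arrays, against 10.01 and 9.69 on Th1 arrays (difference -2.19, SE 0.16, adjusted p = 4.09e-09). Replicate 3 was the lowest Th17 array for all 3, and no Th17 array reached a Th1 array. Klra3, an Ly49 receptor, differed by -2.05 and Klre1, a lectin-like receptor of NK cells, by -1.82, both at levels below the array medians in Th17 cells. Klre1 was below them on Th1 arrays too, at 5.66 and 6.04. Klri1, Klri2 and Klra8, also called lower, lay below the medians on Th17 and Th1 arrays alike, so none of these 4 is shown to be above background. Ncr1, the NK receptor NKp46, differed by -1.06 and Cd160, a receptor for MHC class I and HVEM, by -1.02, and both calls were lost without Th1 replicate 2, that of Cd160 also without Th1 replicate 1. Members that were not called included Klrc1, the inhibitory NKG2A chain, with a difference of -0.78 and an adjusted p of 0.0603, and Cd226, an activating receptor for nectins, with -0.43. Members of the Klra, Klrc and Klri families are near-identical copies, so a probe set may read more than 1 of them. Over chromosome 6, where the family clusters, 23 Klr genes were measured, 11 were called lower and none higher, and Klre1, Klrd1 and Klrk1 formed another such run, with no other measured gene in its span. The count of 13 was 6 without Th1 replicate 2 and between 10 and 14 without any other array.

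Markers of NK cells moved with the same receptors. Of the 8 measured, 7 were called lower in Th17 cells, and their mean was 6.22, 6.17, 6.05 and 6.12 on Th17 arrays, against 7.25 and 7.56 on Th1 arrays. The list shares Gzma, Klre1, Ncr1, Cd160, Klrb1c, Klri2 and Klra8 with the lists above, and activated T cells also make several of these. Ncr1, the marker most restricted to NK cells, lay at 5.89, 5.68, 6.01 and 5.87 on Th17 arrays, against 6.61 and 7.24 on Th1 arrays, thus at most slightly above the array medians. Without Th1 replicate 2, 3 of the 8 were called. What part NK cells had in the receptor and granzyme results was not tested.

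**Figure D3:**
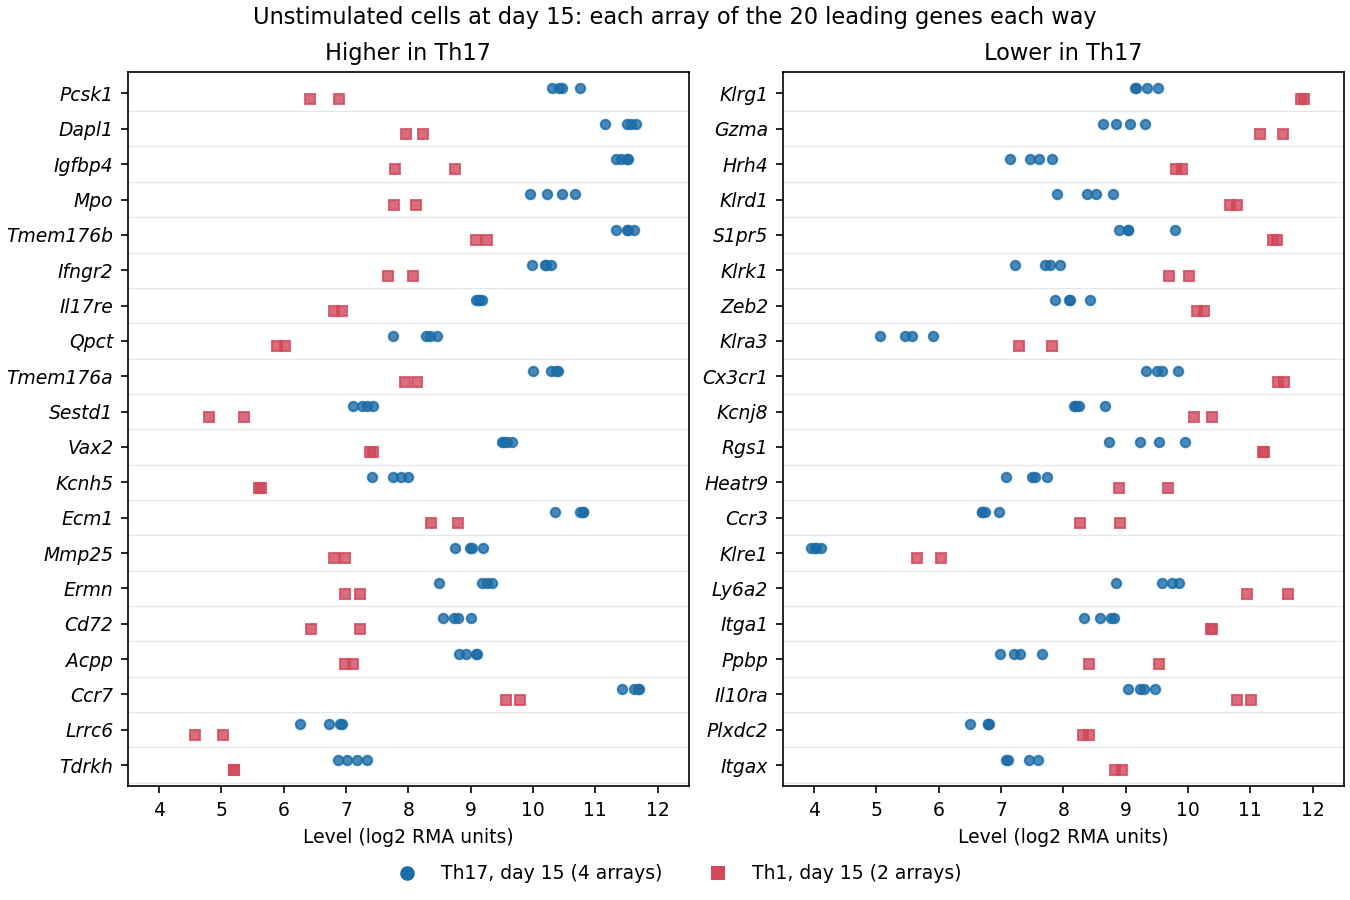
Level (log2 RMA units) of the 20 genes with the largest called differences each way, on each of the 4 Th17 arrays (circles) and 2 Th1 arrays (squares), higher genes on the left and lower genes on the right. In each row the Th17 and Th1 arrays do not overlap, which the choice of genes required. Differences run from 3.83 for Pcsk1 to 1.90 for Tdrkh, and from -2.55 for Klrg1 to -1.57 for Itgax.

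Called transcription factors of effector cells were lower in Th17 cells. Of 15 measured, 6 were called lower and none higher, with a median difference of -0.42, and all 15 lay lower on every Th17 array than on either Th1 array, where 12.2% of all genes did so. Zeb2, a repressor that drives terminal effector differentiation (10482448), lay at 8.43, 8.09, 7.86 and 8.10 on Th17 arrays, against 10.25 and 10.14 on Th1 arrays (difference -2.07, SE 0.23, adjusted p = 2.73e-06). Prdm1, which encodes Blimp-1, lay at 9.14, 8.63, 8.75 and 9.09 on Th17 arrays, against 9.75 and 10.09 on Th1 arrays (difference -1.02, SE 0.15, adjusted p = 0.000123). Tbx21, which encodes T-bet, lay at 11.34, 11.07, 11.17 and 11.41 on Th17 arrays, against a mean of 12.02 ± 0.03 on Th1 arrays (SD, n = 2), with no overlap. Its difference of -0.77 (SE 0.19, adjusted p = 0.0193) lost its call without either Th1 array and without Th17 replicate 2. Hopx, a homeodomain protein of long-lived Th1 cells, differed by -0.93 and was not called without either Th1 array. Bhlhe40, a repressor needed for cytokine production, differed by -0.55 and Runx3, a partner of T-bet, by -0.42. Eomes, the second T-box factor, lay at 6.91, 7.23, 6.98 and 7.36 on Th17 arrays, against 7.79 and 9.04 on Th1 arrays. The Th1 arrays lay far apart, and the difference of -1.29 (SE 0.48) had an adjusted p of 0.16. The count of 6 was 2 without either Th1 array.

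Transcription factors of memory and quiescent cells did not move as a group: of 17 measured, 1 was called higher and 1 lower (median difference -0.03). Satb1, a chromatin organizer of thymocytes and naive T cells, lay at 11.99, 12.04, 11.90 and 12.01 on Th17 arrays, against 11.17 and 11.13 on Th1 arrays (difference 0.83, SE 0.13, adjusted p = 0.000199). Klf3, a repressor that opposes KLF2, differed by -0.61, and its call was lost without either Th1 array. Lef1, the Wnt-responsive partner of TCF-1, lay at 11.02, 11.05, 10.95 and 10.97 on Th17 arrays, against 10.62 and 10.74 on Th1 arrays. The groups did not overlap, and the difference of 0.32 had an adjusted p of 0.101. Id3, an inhibitor of E proteins, with 0.71 and an adjusted p of 0.0559, and Bach2, a repressor of effector genes, with 0.54 and 0.265, were not called. Tcf7 was not analysed here.

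Called surface genes of lymph node homing and memory were higher in Th17 cells, apart from Il2rb. Of 13 measured, 6 were called higher, Ccr7, Il6ra, Emb, Gpr183, Il6st and Cnr2, and 1 lower, Il2rb (median difference 0.52). Ccr7, the chemokine receptor that brings T cells into lymph nodes (10390763), lay at 11.70, 11.69, 11.43 and 11.62 on Th17 arrays, against 9.57 and 9.80 on Th1 arrays (difference 1.93, SE 0.22, 3.81-fold, adjusted p = 4e-06). Il6ra, the binding chain of the IL-6 receptor (10499655), lay at 10.63, 10.87, 10.64 and 10.76 on Th17 arrays, against 8.77 and 9.10 on Th1 arrays (difference 1.79, SE 0.19, adjusted p = 1.49e-06). Both were high on every Th17 array, and Il6st, the shared gp130 chain of the same receptor, was higher by 0.70. Gpr183, the receptor EBI2 that guides cells along oxysterol gradients, was higher by 0.73, though not called without Th1 replicate 1, and Emb, the adhesion protein embigin, by 1.22. Il2rb, the chain shared by the IL-2 and IL-15 receptors, was lower in Th17 cells (difference -0.44, adjusted p = 0.00399), a call lost without Th1 replicate 2. Il7r, the IL-7 receptor, lay at 12.40, 12.53, 12.39 and 12.40 on Th17 arrays, against 11.95 and 12.15 on Th1 arrays, without overlap but with an adjusted p of 0.314. Cd27, a costimulatory receptor lost by late effectors, lay at 11.22, 11.32, 11.11 and 11.38 on Th17 arrays, within the range of 10.83 and 11.57 on Th1 arrays. The count of 6 was 4 without either Th1 array.

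Receptors that lead cells out of lymphoid tissue or into inflamed sites differed in both directions. S1pr5, a sphingosine phosphate receptor for egress of effector cells (10591494), lay at 9.79, 9.04, 9.04 and 8.90 on Th17 arrays, against 11.43 and 11.37 on Th1 arrays (difference -2.21, SE 0.37, adjusted p = 0.000516). Cx3cr1, the fractalkine receptor (10597743), lay at 9.84, 9.50, 9.59 and 9.32 on Th17 arrays, against 11.44 and 11.54 on Th1 arrays (difference -1.93, SE 0.23, adjusted p = 7.24e-06). Ccr4, a receptor for CCL17 and CCL22 found on Th2, Th17 and skin-homing cells, lay at 11.09, 11.39, 11.04 and 11.27 on Th17 arrays, against 9.22 and 9.92 on Th1 arrays (difference 1.63, SE 0.31, adjusted p = 0.00221). Groups were apart for all 3, and replicate 1 was the highest Th17 array for S1pr5 and Cx3cr1. Ccr6, the CCL20 receptor of Th17 cells, was higher by 1.09, and like Ccr4 it was not called without Th1 replicate 1. Ccr3, the eotaxin receptor, lay at 6.69, 6.97, 6.69 and 6.74 on Th17 arrays, near the array medians, against 8.27 and 8.91 on Th1 arrays (difference -1.82, SE 0.15, adjusted p = 3.87e-08). S1pr1, the egress receptor of naive and memory cells, differed by 0.08, and Cxcr3, the Th1 chemokine receptor, by -0.41 with an adjusted p of 0.0653. Neither was called.

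Among integrins and adhesion genes 6 of 19 were called lower and none higher (median difference -0.30). Itga1, the collagen-binding chain of VLA-1 (10412298), lay at 8.77, 8.59, 8.33 and 8.82 on Th17 arrays, against 10.38 and 10.37 on Th1 arrays (difference -1.75, SE 0.25, adjusted p = 6.42e-05). Its partner chain Itgb1 was lower as well, with a difference of -0.47 (adjusted p = 0.00748). Itgax, which encodes CD11c and is made by dendritic cells and some activated T cells, lay at 7.59, 7.12, 7.08 and 7.45 on Th17 arrays, against 8.83 and 8.94 on Th1 arrays (difference -1.57, SE 0.29, adjusted p = 0.00162). Itgax was the single one of 11 dendritic cell and MHC class II markers to be called. Icam1, a ligand of LFA-1, differed by -0.91 and Alcam, the ligand of CD6, by -0.88, and like Itgax neither was called without Th1 replicate 2. The count of 6 was 2 without Th1 replicate 2 and 4 without Th1 replicate 1.

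Inhibitory receptors were lower in Th17 cells in 7 of 16 cases and higher in 1 (median difference -0.69). Havcr2, which encodes TIM-3 and is characteristic of Th1 cells, lay at 8.86, 8.40, 8.60 and 9.11 on Th17 arrays, against 10.25 and 10.36 on Th1 arrays (difference -1.56, SE 0.37, adjusted p = 0.0135). Pdcd1, which encodes PD-1, lay at 9.42, 9.39, 9.50 and 9.64 on Th17 arrays, against 10.44 and 10.68 on Th1 arrays (difference -1.07, SE 0.23, adjusted p = 0.0072). Tigit lay at 10.77, 10.24, 10.75 and 10.67 on Th17 arrays, against 11.37 and 11.63 on Th1 arrays (difference -0.89, SE 0.14, adjusted p = 0.000354). None of the 3 overlapped. Ctla4, the competitor of CD28 for its ligands, differed by -0.94 and Lag3, an MHC class II ligand, by -0.93. The ectonucleotidases parted: Entpd1, which encodes CD39 and breaks down ATP, lay at 10.09, 9.65, 9.80 and 9.92 on Th17 arrays, against 11.31 and 11.19 on Th1 arrays (difference -1.38, SE 0.13, adjusted p = 1.51e-07). Nt5e, which encodes CD73 and makes adenosine from AMP, lay at 10.30, 10.49, 10.19 and 10.38 on Th17 arrays, against 8.93 and 9.15 on Th1 arrays (difference 1.30, SE 0.22, adjusted p = 0.000672). Acpp, an acid phosphatase that also acts on AMP, was higher too, by 1.93. The call of Havcr2 was lost without either Th1 array and that of Pdcd1 without Th1 replicate 2, and the count of 7 was 3 without Th1 replicate 2.

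Genes of the Th17 program were higher in part. Of 12 measured, 6 were called higher, Tmem176b, Il17re, Tmem176a, Il23r, Ccr6 and Rora, and none lower (median difference 0.36). Il17re, the receptor chain for IL-17C (10540679), lay at 9.18, 9.13, 9.09 and 9.14 on Th17 arrays, against 6.94 and 6.80 on Th1 arrays (difference 2.27, SE 0.17, 4.81-fold, adjusted p = 5.36e-09). Il23r, the receptor for the cytokine that sustains Th17 cells, lay at 8.05, 8.06, 7.70 and 7.73 on Th17 arrays, against 7.03 and 6.31 on Th1 arrays (difference 1.22, SE 0.18, adjusted p = 0.000111). Rora, a nuclear receptor that promotes Th17 differentiation, lay at 10.95, 10.90, 10.99 and 11.08 on Th17 arrays, against 10.50 and 10.58 on Th1 arrays (difference 0.44, adjusted p = 0.0235). The cytokine genes themselves lay below the array medians in these unstimulated cells. Il17a lay at 6.44, 6.45, 6.75 and 6.39 on Th17 arrays, against 6.35 and 6.25 on Th1 arrays, and Il17f lay at 6.58, 6.51, 6.87 and 6.48 on Th17 arrays, against 6.50 and 6.62 on Th1 arrays. Neither was called, with adjusted p-values of 0.84 and 0.941, and in cultured Th17 cells before transfer, 1 array, Il17a was at 11.86. Maf, with a difference of -0.52, and Il21, with -1.47, were not called. Il22 was not analysed here. The count of 6 was 4 without Th1 replicate 1 and 5 or 6 without any other array.

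Tmem176a and Tmem176b, membrane proteins of intracellular vesicles often found in Th17 cells, were among the highest. Tmem176b (10544596) lay at 11.62, 11.53, 11.33 and 11.51 on Th17 arrays, against 9.09 and 9.27 on Th1 arrays (difference 2.31, SE 0.17, 4.96-fold, adjusted p = 5.63e-09). Tmem176a (10538150) lay at 10.37, 10.29, 10.00 and 10.41 on Th17 arrays, against 7.94 and 8.14 on Th1 arrays (difference 2.22, SE 0.19, 4.67-fold, adjusted p = 3.87e-08). On chromosome 6 they lie on opposite strands, and the listed extent of Tmem176a (48841483-48845364) lies within that of Tmem176b (48833811-48845948). The 250 bases before the first listed RefSeq start of each also overlap, and that start of Tmem176b lies inside its listed extent. Both stretches are shown for that reason, Tmem176a on the plus strand at chr6:48841233-48841482 and Tmem176b on the minus strand at chr6:48841138-48841387 (RefSeq, GRCm38.p6).
Tmem176a: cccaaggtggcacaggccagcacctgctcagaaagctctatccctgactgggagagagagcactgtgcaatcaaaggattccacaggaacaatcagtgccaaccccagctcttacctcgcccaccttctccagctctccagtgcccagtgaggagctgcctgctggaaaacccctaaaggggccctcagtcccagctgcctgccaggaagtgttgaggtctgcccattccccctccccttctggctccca
Tmem176b: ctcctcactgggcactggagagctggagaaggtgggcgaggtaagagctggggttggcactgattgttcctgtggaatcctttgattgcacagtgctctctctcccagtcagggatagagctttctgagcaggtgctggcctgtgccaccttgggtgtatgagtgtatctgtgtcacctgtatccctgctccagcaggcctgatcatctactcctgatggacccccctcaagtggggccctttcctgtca
No match to the 5 motifs searched fell within these 250 bases of either gene. Pcsk1 and Dapl1, described next, had the 2 largest differences of all genes, and their promoters are shown with matches to the Tcf/Lef core, TTCAAAG, and to a Klf motif, CCACCC, in capitals. Pcsk1 lies on the plus strand at chr13:75089607-75089856 and Dapl1 on the plus strand at chr2:59484403-59484652.
Pcsk1: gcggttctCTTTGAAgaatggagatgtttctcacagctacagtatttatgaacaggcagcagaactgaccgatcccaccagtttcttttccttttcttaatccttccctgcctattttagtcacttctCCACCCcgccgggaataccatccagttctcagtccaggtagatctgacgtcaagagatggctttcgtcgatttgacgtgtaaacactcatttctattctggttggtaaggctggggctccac
Dapl1: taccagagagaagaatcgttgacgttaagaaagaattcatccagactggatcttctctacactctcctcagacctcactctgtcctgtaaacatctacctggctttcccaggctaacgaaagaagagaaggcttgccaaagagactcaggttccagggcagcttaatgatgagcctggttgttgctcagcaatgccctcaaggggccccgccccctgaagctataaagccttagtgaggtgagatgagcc
The Pcsk1 promoter held a Tcf/Lef core at base -242 and a Klf motif at base -122, and that of Dapl1 held no match. The stretch shown for Pcsk1 lies before its first listed start but inside the listed extent of the gene, which begins at 75089420.

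The 3 largest differences were of genes in neither the Th17 nor the Th1 program list. Pcsk1, a prohormone convertase of neuroendocrine cells (10406229), lay at 10.42, 10.76, 10.30 and 10.46 on Th17 arrays, against 6.42 and 6.89 on Th1 arrays (difference 3.83, SE 0.23, 14.2-fold, adjusted p = 5.48e-10). Dapl1, a relative of the death-associated protein DAP (10472235), lay at 11.66, 11.58, 11.16 and 11.51 on Th17 arrays, against 7.97 and 8.23 on Th1 arrays (difference 3.38, SE 0.25, 10.4-fold, adjusted p = 4.67e-09). Igfbp4, an insulin-like growth factor binding protein also high in naive T cells (10381096), lay at 11.51, 11.52, 11.34 and 11.42 on Th17 arrays, against 7.79 and 8.75 on Th1 arrays (difference 3.18, SE 0.29, 9.04-fold, adjusted p = 8.41e-08). The Th17 arrays lay close together for each of the 3, whereas the Th1 arrays lay apart for Igfbp4. Ifngr2, the signalling chain of the IFN-γ receptor (10436865), lay at 10.21, 10.29, 9.98 and 10.20 on Th17 arrays, against 7.68 and 8.07 on Th1 arrays (difference 2.29, SE 0.24, adjusted p = 9e-07). Its partner Ifngr1 differed by 0.16 and was not called. Vax2, a homeobox factor of eye development, lay at 9.53, 9.51, 9.58 and 9.66 on Th17 arrays, against 7.38 and 7.43 on Th1 arrays (difference 2.17, SE 0.15). Ecm1, a secreted matrix protein, differed by 2.10, Qpct, a glutaminyl cyclase, by 2.25, Sestd1, a lipid-binding spectrin-repeat protein, by 2.20, Kcnh5, a voltage-gated potassium channel, by 2.14, Mmp25, a membrane-anchored metalloproteinase, by 2.09 and Cd72, a lectin-like coreceptor of B cells, by 1.94. Ermn, a cytoskeletal protein of oligodendrocytes, with 1.96, Tdrkh, a Tudor-domain protein of the piRNA pathway, with 1.90, and Lrrc6, a protein of cilium assembly, with 1.90, complete the 20 highest. In Th1 cells Sestd1, Kcnh5, Qpct, Lrrc6 and Tdrkh all lay below the array medians, the highest being Qpct at 6.02. Pcsk1, at 6.42 and 6.89, also lay below the medians of the 2 Th1 arrays, 6.96 and 7.03, as did Il17re and Mmp25. The Th1 levels of these genes are thus not shown to be above background.

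The remaining genes among the 20 lowest were receptors, channels and others. Hrh4, the histamine H4 receptor (10454052), lay at 7.47, 7.61, 7.14 and 7.82 on Th17 arrays, against 9.81 and 9.91 on Th1 arrays (difference -2.35, SE 0.25, adjusted p = 9e-07). Kcnj8, an ATP-sensitive inward rectifier potassium channel, lay at 8.67, 8.26, 8.17 and 8.21 on Th17 arrays, against 10.38 and 10.09 on Th1 arrays (difference -1.91, SE 0.22, adjusted p = 3.64e-06). Il10ra, the binding chain of the IL-10 receptor, lay at 9.47, 9.23, 9.04 and 9.29 on Th17 arrays, against 10.79 and 11.01 on Th1 arrays (difference -1.64, SE 0.12, adjusted p = 4.09e-09). Every Th17 array was below every Th1 array for each, which the choice of the 20 lowest required. Rgs1, a brake on chemokine receptor signalling, differed by -1.85, Heatr9 by -1.83, Ly6a2 by -1.76 and Plxdc2 by -1.64. Ppbp, a platelet chemokine, lay at 6.98, 7.31, 7.21 and 7.66 on Th17 arrays, against 8.41 and 9.53 on Th1 arrays, and was the single one of 5 platelet markers to be called. The platelet list as a whole averaged 7.02 to 7.36 on Th17 arrays and 7.45 and 8.03 on Th1 arrays. What part platelet RNA had in the Ppbp result was not tested.

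In the 300 bases around the start, an AP-1 motif, TGANTCA, was present in 1 of 16 promoters found for the 20 highest genes (6.25%) and in 5 of 14 found for the 20 lowest (35.7%), against 7.93% of all promoters. The Klf motif was present in 8 of 16 and 4 of 14 (28.6%), against 30.9% of all. The Tcf/Lef core was present in 3 of 16 (18.8%) and 1 of 14 (7.14%), against 5.27% of all. The T-box core, in 3.96% of all, and Ets, CCGGAAG, in 9.12% of all, were present in none of either set. Both strands were searched, and the numbers of promoters are small. Ccr3 and Itgax are shown as lower genes with an AP-1 match, in capitals, on the plus strand at chr9:124021721-124021970 and on the plus strand at chr7:128129300-128129549 (RefSeq, GRCm38.p6).
Ccr3: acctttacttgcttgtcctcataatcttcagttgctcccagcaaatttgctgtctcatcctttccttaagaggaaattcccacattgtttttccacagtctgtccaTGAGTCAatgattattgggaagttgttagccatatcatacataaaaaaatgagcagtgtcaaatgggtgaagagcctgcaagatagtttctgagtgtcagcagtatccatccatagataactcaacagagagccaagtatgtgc
Itgax: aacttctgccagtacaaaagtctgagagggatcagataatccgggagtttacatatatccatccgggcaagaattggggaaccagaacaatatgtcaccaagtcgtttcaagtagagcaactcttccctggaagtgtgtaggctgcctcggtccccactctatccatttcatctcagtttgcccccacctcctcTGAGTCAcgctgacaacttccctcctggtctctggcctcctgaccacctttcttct
The match began at base -144 in Ccr3 and at base -56 in Itgax, and a match is not evidence that a factor binds there. Bases are counted from the first listed start, and the stretch shown for Ccr3 lies inside the listed extent of the gene (124017825-124031692).

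Called genes of the Th1 program and of the chemokines and cytokines were lower in Th17 cells apart from Ifngr2, described above, and Lta. Of 15 Th1 program genes measured, 4 were called lower, Il12rb2, Il18rap, Ccl5 and Tbx21, and 1 higher (median difference -0.41). Il12rb2, the signalling chain of the IL-12 receptor, lay at 11.15, 10.67, 10.70 and 11.13 on Th17 arrays, against 11.83 and 11.90 on Th1 arrays (difference -0.96, SE 0.25, adjusted p = 0.026). Ccl5, the chemokine RANTES, lay at 12.76, 12.54, 12.52 and 12.59 on Th17 arrays, against 13.39 and 13.44 on Th1 arrays (difference -0.81, SE 0.12, adjusted p = 0.000187). Ifng itself lay at 11.46, 11.06, 10.73 and 11.23 on Th17 arrays, against 12.18 and 11.91 on Th1 arrays. The groups did not overlap, but the difference of -0.93 (SE 0.32) had an adjusted p of 0.123, and Ifng on the Th17 arrays was thus well above the array medians. Ccl3, an inflammatory chemokine, lay at 8.57, 8.11, 8.65 and 8.79 on Th17 arrays, against 10.42 and 10.37 on Th1 arrays, with an adjusted p of 0.0554. Among 21 chemokine and cytokine genes, Csf1, Xcl1, Cxcl10 and Ccl5 were called lower and Lta, lymphotoxin alpha, higher by 0.80. The calls of Il12rb2, Csf1, Xcl1, Cxcl10 and Lta were lost without either Th1 array, and the count of 4 in the Th1 program was 1 without Th1 replicate 1, 2 without Th1 replicate 2 and 2 without Th17 replicate 2.

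Foxp3, the defining factor of regulatory T cells, lay at 9.59, 9.61, 9.83 and 9.65 on Th17 arrays, against 9.92 and 11.17 on Th1 arrays (difference -0.88, adjusted p = 0.0975). Ikzf2, which encodes Helios, lay at 7.41, 7.56, 7.76 and 7.63 on Th17 arrays, against 8.33 and 9.36 on Th1 arrays, and its adjusted p of 0.00566 was lost without that array. Of 12 regulatory T cell genes, 3 were called lower, Ikzf2, Nrp1 and Ctla4 (median difference -0.69), and 2 without that array. Th1 replicate 2 was the higher Th1 array for Foxp3 and Ikzf2, but not for Nrp1 or Ctla4. Nrp1, a semaphorin coreceptor, lay at 10.26, 10.16, 10.07 and 10.67 on Th17 arrays, against 11.35 and 11.35 on Th1 arrays.

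**Figure D4:**
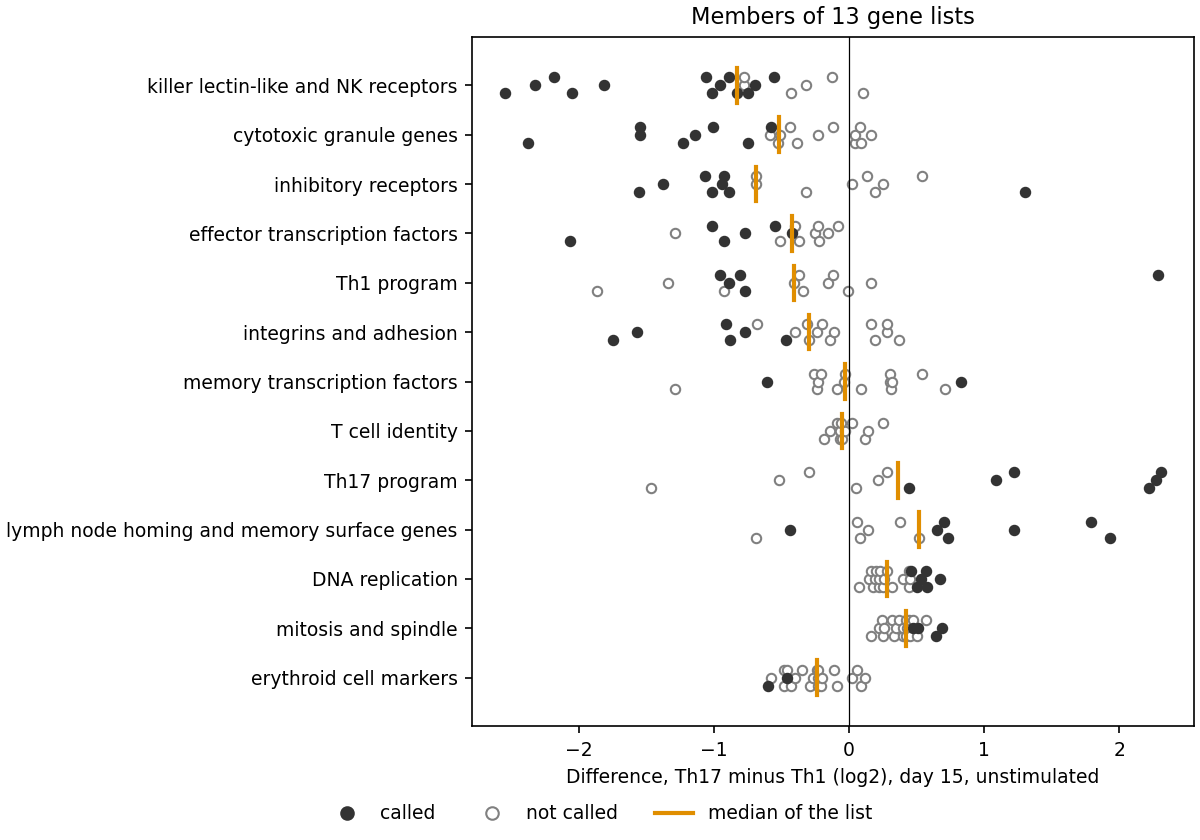
Difference (Th17 minus Th1, log2) of each measured member of 13 gene lists, spread vertically only so that points can be seen. Filled points are called genes, open points are not, and bars mark list medians, which run from -0.83 for killer lectin-like and NK receptors to 0.52 for lymph node homing and memory surface genes.

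A minority of cell division genes were called, all higher in Th17 cells. Of 23 mitosis genes, 4 were called higher and none lower (median difference 0.42), and of 23 DNA replication genes 6 were called higher and none lower (0.28). Aurkb, the mitotic kinase Aurora B, lay at 11.38, 11.21, 11.30 and 11.39 on Th17 arrays, against 10.90 and 10.37 on Th1 arrays (difference 0.69, SE 0.14, adjusted p = 0.00331). Mcm3, a subunit of the replicative helicase, lay at 10.35, 10.24, 9.83 and 10.26 on Th17 arrays, against 9.68 and 9.32 on Th1 arrays (difference 0.67, SE 0.12, adjusted p = 0.00126). Th1 replicate 2 was the lowest array for both, and without it none of the mitosis and replication genes was called. Without Th17 replicate 3, which had the lowest erythroid mean, 9 mitosis and 7 replication genes were called, and the mitosis count was 2 without Th17 replicate 1 or 4. With the erythroid mean as a covariate, 16 and 13 were called higher. What part dividing erythroid cells had in these levels was not tested. Mki67, the Ki-67 proliferation antigen, lay at 12.03, 12.06, 11.85 and 12.18 on Th17 arrays, against 11.98 and 11.57 on Th1 arrays, and overlapped.

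Granule enzymes of myeloid precursors were higher on Th17 arrays. Mpo, myeloperoxidase (10380174), lay at 9.96, 10.68, 10.22 and 10.47 on Th17 arrays, against 7.77 and 8.12 on Th1 arrays (difference 2.39, SE 0.39, adjusted p = 0.000456). Elane, neutrophil elastase, lay at 8.51, 8.85, 8.37 and 9.01 on Th17 arrays, against 7.20 and 7.31 on Th1 arrays (difference 1.43, SE 0.16, adjusted p = 1.77e-06). Prtn3, proteinase 3, lay at 8.02, 8.38, 8.01 and 8.40 on Th17 arrays, against 6.61 and 6.72 on Th1 arrays (difference 1.54, SE 0.14, adjusted p = 5.55e-08). Ctsg, cathepsin G, was higher by 1.68, and Prtn3 and Elane neighbour each other on chromosome 10. All 4 genes were high on every Th17 array, with no overlap. The list of 18 myeloid markers averaged 7.20, 7.71, 6.99 and 7.61 on Th17 arrays, against 6.70 and 6.71 on Th1 arrays, and had Mpo, Lyz2 and Elane called higher and Itgam lower. Genes of later granules varied among the Th17 arrays: Ngp, neutrophilic granule protein, lay at 8.28, 9.30, 7.11 and 9.21 on Th17 arrays, against 6.28 and 5.85 on Th1 arrays, and Lcn2, lipocalin 2, lay at 8.54, 9.48, 7.13 and 9.12 on Th17 arrays, against 6.46 and 6.55 on Th1 arrays. Neither was called, with adjusted p-values of 0.081 and 0.108. Csf1r, the CSF1 receptor of macrophages, differed by 0.15 and was not called. At day 5 the myeloid mean lay between 7.34 and 8.57 on Th17 arrays and between 6.56 and 6.89 on Th1 arrays. The call of Lyz2, lysozyme, was lost without either Th1 array, and the count of 3 was 6 without Th17 replicate 3 and 2 or 3 without any other array. The part of myeloid cells in the granule enzyme result was not tested.

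Whether the day 15 difference was already present at day 5 was asked of the same model, which holds 3 Th17 and 3 Th1 unstimulated arrays of that day. At day 5, 723 genes were called (3.63%), with 1.32% of genes lower and 0.823% at least 2-fold different. Calls in the same direction at both days were made for 296 genes, which is 35.8% of the day 15 calls and 40.9% of the day 5 calls, and 12 genes were called in opposite directions. The difference itself changed between days for 227 genes (1.14%), towards higher for 0.577% and towards lower for 0.562%, and 131 of them were also called at day 15. The number of genes that changed between days was 34 without Th1 replicate 2 and 357 without Th17 replicate 3. Some of the leading genes differed by like amounts at day 5: Pcsk1 differed by 3.46 at day 5 and 3.83 at day 15, Igfbp4 by 2.66 and 3.18, Tmem176b by 2.59 and 2.31, Ifngr2 by 2.63 and 2.29, Ccr7 by 1.88 and 1.93, and Klrg1 by -3.21 and -2.55. None of these 6 was called as changed between days. Klrg1 on Th17 arrays lay at 7.84, 8.06 and 7.48 at day 5 and between 9.15 and 9.52 at day 15, whereas on Th1 arrays it lay at 10.93, 11.05 and 11.04 at day 5 and at 11.87 and 11.81 at day 15.

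Several killer receptors and granzymes differed more at day 15 than at day 5. The difference of Klrd1 was -0.34 at day 5 and -2.33 at day 15 (change -1.98, adjusted p = 0.000156), that of Klre1 was -0.11 and -1.82 (adjusted p = 4.09e-06), and that of Gzmb was -0.09 and -1.55 (adjusted p = 0.0104). At day 15 Klre1 lay below the array medians on Th17 and Th1 arrays alike. Gzmb lay at 11.95, 12.68 and 12.48 on Th17 arrays and at 12.37, 12.44 and 12.56 on Th1 arrays at day 5. By day 15 it lay between 10.41 and 10.80 on Th17 arrays and at 12.13 and 12.24 on Th1 arrays, so the Th17 arrays lay lower than at day 5 and the Th1 arrays changed less. For Klrd1 the Th1 arrays lay higher, at 8.62, 8.49 and 8.84 at day 5 and at 10.68 and 10.78 at day 15, while the Th17 arrays lay between 8.11 and 8.66 at day 5 and between 7.90 and 8.79 at day 15. Of the 19 killer receptor genes, 7 changed between days, all towards lower in Th17. Klrb1c, the NK1.1 antigen, and Klrc2, an activating NKG2 chain, turned from higher to lower: 1.02 and -0.96 for Klrb1c, and 0.78 and -0.70 for Klrc2, at day 5 and day 15. The day 15 call of Klrb1c was lost without Th1 replicate 2. Its day 15 Th17 levels of 6.84, 6.75, 6.56 and 6.62 lay near or below the array medians. Ctla4 differed by 0.44 at day 5 and -0.94 at day 15 (adjusted p = 0.00138).

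**Figure D5:**
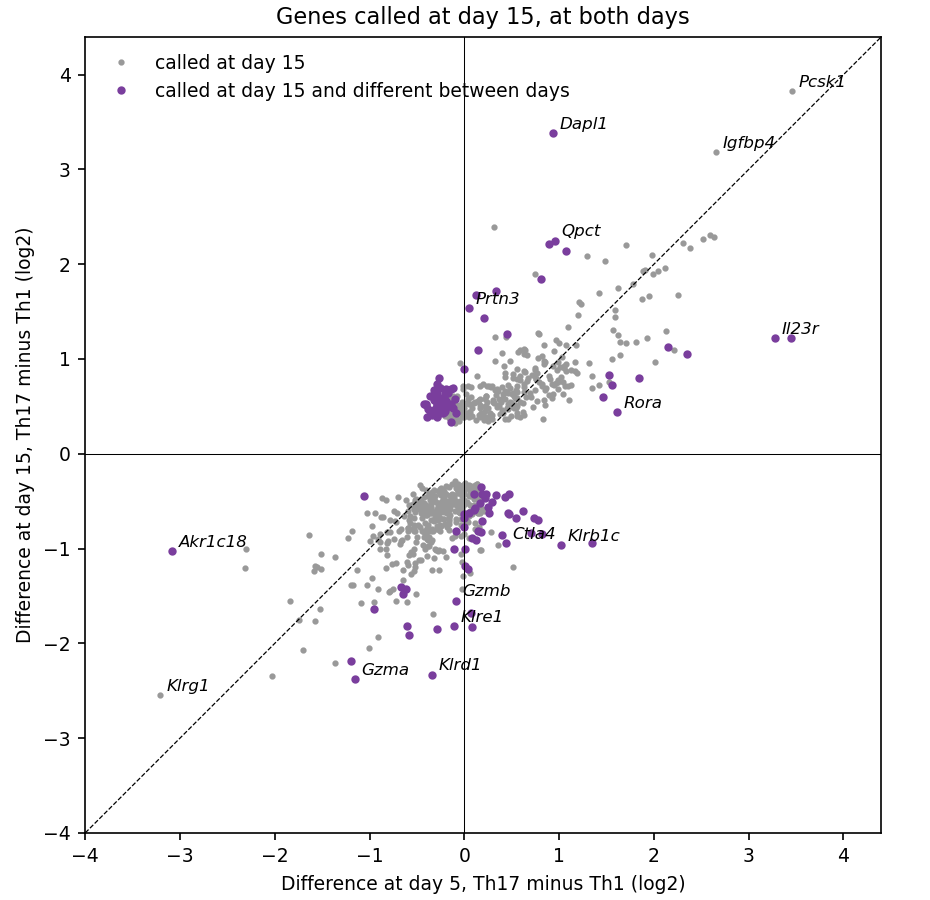
Difference at day 15 (Th17 minus Th1, log2, vertical axis) against that at day 5 (horizontal axis) for the 827 genes called at day 15, with the 131 genes whose difference also changed between days in purple and the line of equal differences dashed. Pcsk1 and Igfbp4 lie near the line, Dapl1, Gzmb, Klrd1 and Klre1 lie farther from zero at day 15, and Il23r and Rora lie nearer to zero.

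Dapl1 parted late as well, with a difference of 0.94 at day 5 and 3.38 at day 15 (change 2.43, adjusted p = 0.000574). Its Th17 arrays lay at 7.92, 7.36 and 7.99 at day 5 and between 11.16 and 11.66 at day 15, and its Th1 arrays at 6.58, 7.08 and 6.78 at day 5 and at 7.97 and 8.23 at day 15. Qpct followed, with 0.96 and 2.25. Il23r and Rora differed less at day 15. Il23r differed by 3.28 at day 5 and 1.22 at day 15 (change -2.06, adjusted p = 0.00013), with Th17 arrays at 8.86, 9.36 and 9.25 at day 5 and between 7.70 and 8.06 at day 15. Rora differed by 1.61 and 0.44. Prtn3, Ctsg and Elane did not differ at day 5, with 0.05, 0.12 and 0.21, and the difference between days was called for all 3, whereas for Mpo it was not (change 2.08, adjusted p = 0.0606). None of the mitosis and replication genes was called at day 5, where their medians were -0.20 for mitosis and -0.27 for replication, and 5 mitosis and 6 replication genes changed between days.

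Parts of the same samples received anti-CD3 and anti-CD28 for 2 h and gave 1282 calls (6.43%), with 2.98% of genes lower and 1.12% at least 2-fold different. Since they are parts of the same sorted samples, they are no independent repeat. Of the 827 genes, 481 were called in the same direction, 1 in the opposite direction, and 795 had the same sign. Pcsk1 differed by 3.45 after restimulation, Dapl1 by 3.81, Klrg1 by -2.27, Gzma by -2.17 and Zeb2 by -1.91, beside 3.83, 3.38, -2.55, -2.38 and -2.07 in the unstimulated parts. The myeloid granule enzymes differed by less, with 0.57 for both Mpo and Elane and 0.39 for Prtn3 after restimulation, and Mpo then overlapped, at 7.81, 8.71, 9.80 and 9.58 on Th17 arrays, against 7.55 and 9.25 on Th1 arrays. Il17a lay at 8.93, 6.85, 7.32 and 7.02 on restimulated Th17 arrays, against 6.59 and 6.38 on restimulated Th1 arrays, with replicate 1 highest (difference 1.05, adjusted p = 0.0509). Of the 23 mitosis genes, 22 were called higher in Th17 after restimulation, beside 4 without it, against 3.45% and 1.88% of all genes. In the restimulated parts 13 of 23 erythroid markers were called lower in Th17 and none higher. Their mean lay between 7.73 and 8.09 on Th17 arrays and between 8.36 and 8.80 on Th1 arrays. What part erythroid cells had in these mitosis counts was not tested.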

How the data were processed

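Affymetrix mouse gene arrays were summarized by the authors as log2 RMA values in Affymetrix Expression Console, per the submitters' processing notes (versions and settings not given in the sources used here), and these deposited log2 values were used as they stand. Groups were taken from the sample labels. Of 35556 probe sets, 21789 carried 1 gene symbol, and the 1621 with several and the 12146 with none were left out. For genes with more than 1 probe set, that of highest mean was kept, which gave 19938 genes. limma 3.58.1 in R 4.3.3 was run over all 24 ex vivo arrays, as 8 groups and 16 residual degrees of freedom. The 4 day 0 arrays, 1 per group, were left out of the fit. Contrasts were Th17 minus Th1 at day 15, at day 5, in restimulated parts, and the day 15 difference minus the day 5 difference. P-values were adjusted by the Benjamini-Hochberg method over all genes. On simulated data with 200 of 19938 genes changed, 97% of log2 changes of 1 and 100% of log2 changes of 2 were recovered in the day 15 comparison, with 9 unchanged genes called. The simulated noise was independent and normal, with the same spread on every array for a given gene. It held no outlying array and no shift shared by many genes, so these shares need not hold for the real arrays.

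The members and gene lists were chosen with earlier results of these data known. Genes were named as the 20 with the largest called differences each way without overlap (no clone names, no erythroid genes), up to 4 called members of each list, up to 8 each way for the change between days, and a fixed panel. Other list members named were chosen after their values were seen. Some symbols are old, as the array annotation gives them, and several genes were not analysed here. Alternatives changed the arrays in the model, normalization, probe set rule, filter, variance prior, array weights, blocks and erythroid terms. Array number limits the precision. The labels give no pairing of samples by replicate number, and the main fit used none. Th17 and Th1 arrays of the same number correlated at 0.30 for replicates 1 and at -0.13 for replicates 2 in their deviations from group means. With 2 Th1 arrays those deviations mirror each other, so these correlations cannot decide whether the samples were paired.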

Additional observations from a re-analysis of the deposited data

Results flagged for a closer look

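In 7 of 124 named genes, 1 of the 4 Th17 arrays lay far from the other 3, where chance flags about 1 gene in 20. Replicate 3 was distant for Ecm1, at 10.35 where the others lay between 10.76 and 10.81, for Ermn, at 8.49 where the others lay between 9.19 and 9.34, and for Il17a, at 6.75 where the others lay between 6.39 and 6.45. Replicate 2 was distant for Ccr3, at 6.97 where the others lay between 6.69 and 6.74, and for Il7r, at 12.53 where the others lay between 12.39 and 12.40. Replicate 1 was distant for S1pr5, at 9.79 where the others lay between 8.90 and 9.04, and for Plxdc2, at 6.51 where the others lay between 6.79 and 6.81.

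The difference between Th17 and Th1 changed between day 5 and day 15, by limma's test of that change over all genes, for the genes that follow. Towards higher in Th17, Dapl1 changed by 2.43 (adjusted p = 0.000574), Ctsg by 1.57 (0.0138), Prtn3 by 1.49 (0.000173) and Qpct by 1.29 (0.0169). Klk1b11, a kallikrein-related gene, changed by 3.70 (adjusted p = 1.06e-06), with differences of -4.03 at day 5 and -0.32 at day 15, Klk1b8 by 1.61 and Klk1b9 by 1.40. The Klk1b genes are near-identical copies, so their probe sets may read one another. Akr1c18, a hydroxysteroid dehydrogenase, changed by 2.04, with differences of -3.08 at day 5 and -1.03 at day 15. The day 15 call of Akr1c18 was lost without Th1 replicate 1. At day 15 Akr1c18, Klk1b11 and Klk1b8 lay below the array medians on Th17 and Th1 arrays alike. Towards lower in Th17, Hspa1a, a heat shock protein, changed by -3.83 (adjusted p = 0.0272), with 2.78 at day 5 and -1.05 at day 15, and Cd24a, a surface glycoprotein, by -2.25, with 1.76 and -0.49. Neither of these 2 genes was called at day 15, where the groups overlapped for both. Hspa1a then lay at 11.08, 8.65, 7.60 and 7.86 on Th17 arrays, against 10.39 and 9.29 on Th1 arrays. Ifitm1, an interferon-induced membrane protein, changed by -2.29, with 1.35 and -0.94. Olfr60, an olfactory receptor gene, changed by -2.23, with 3.45 and 1.22, and Il23r by -2.06. Klrd1 and Klrb1c both changed by -1.98, and Heatr9 by -1.90, with 0.08 at day 5 and -1.83 at day 15.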

How the results depend on the processing

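Counts of calls depended on single arrays and on array weights. Leaving out 1 array at a time gave 283 to 828 genes called at day 15, 152 to 448 higher and 131 to 512 lower in Th17, and 34 to 357 genes whose difference changed between days, 10 to 241 towards higher, 24 to 141 towards lower and 28 to 75 at least 2-fold. Array weights, which gave Th17 replicate 3 little weight, called 1582 genes at day 15 (758 higher, 824 lower) and 1317 between days (716 higher, 601 lower, 117 at least 2-fold). Between days, the 12 unstimulated arrays alone gave 373 genes (174 higher, 199 lower), genes above the median 341 (180 higher), cyclic loess 426 (221 higher, 205 lower) and the erythroid mean as a covariate 549 (412 higher, 118 at least 2-fold). That covariate also shifted the day 15 split to 543 higher and 388 lower, or 58.3% higher, against 45.2% without it. Centring each array on its median gave 322 higher and 581 lower. The causes were not tested. The replicate block, which the labels do not support as a pairing, gave 847 calls at day 15 and 252 between days. With only the 6 compared arrays in the model, 652 genes were called at day 15. Of the 827 genes, 535 were then called in the same direction. Each of the 827 genes kept the sign of its difference under each alternative that tested it (672 were tested among genes above the median, and 825 with erythroid markers left out). This was in large part fixed in advance. The groups did not overlap for 823 of them, so leaving out 1 array could not turn the sign. A change of variance prior or of the other arrays in the model leaves the difference itself unchanged. Of 108 named genes called, 56 were called under every alternative that tested them. Signs turned for 3 genes that were not called: Cd27 was -0.01 with the erythroid covariate and ran from -0.31 to 0.42 when 1 array was left out, Il17f was -0.02 with array weights and -0.11 with the erythroid covariate and ran from -0.04 to 0.11, and Thy1 was -0.01 after centring and ran from -0.01 to 0.05.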

Other observations

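Several gene groups that often part helper T cell states showed few calls at day 15. None of 15 cholesterol synthesis genes and none of 8 Gimap GTPase genes was called in either direction, and of 17 interferon response genes only Mx1, an antiviral GTPase, was called, lower in Th17 cells, against a list median of 0.22. Its difference of -0.79 (adjusted p = 0.0453 in limma) was no longer called under 8 of 18 alternatives, among them without either Th1 array and without Th17 replicate 2 or 3. Of 13 survival genes of the Bcl2 family, Bik, a promoter of apoptosis, was called higher by 0.78, and Pmaip1, which encodes the pro-apoptotic protein NOXA, was called lower (difference -0.57, adjusted p = 0.0243 in limma), a call lost without either Th1 array and without Th17 replicate 2 or 3. Bcl2 itself lay at 12.42, 12.29, 12.37 and 12.30 on Th17 arrays, against 11.82 and 11.95 on Th1 arrays. The groups did not overlap, and the difference of 0.46 had an adjusted p of 0.0536 in limma.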
